A study of Homo sapiens with 6 samples.

Results

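The genes described here were 10 core genes of nucleotide excision repair, XPC, DDB2, DDB1, ERCC6, ERCC8, XPA, ERCC2, ERCC3, ERCC1 and ERCC4. They were taken by gene symbol from the 16798 coding genes of the gene table, and all 10 had a row and passed the filter on low counts. Total RNA was sequenced from 6 samples of COV434, to profile the response to cyclophosphamide (CTX), an alkylating drug. The study describes COV434 as an immortalized human granulosa cell (GC) line. Of these, 3 were controls, labelled WT, for which no vehicle is named. The other 3, labelled CTX, were exposed to 15 µM 4-hydroxycyclophosphamide (4HC), the active metabolite of CTX, for 24 h. All 6 came from the same cell line, and the labels do not say whether replicates were grown separately, so p-values measure only the spread between these samples, which may be technical.

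Nucleotide excision repair removes bulky lesions, including some drug adducts, by cutting out a short stretch of the damaged strand and filling the gap. In the genome-wide route XPC recognizes the distorted helix, and DDB2 with its partner DDB1 binds lesions and hands them to XPC. In the transcription-coupled route ERCC6 (CSB) and ERCC8 (CSA) act at a stalled RNA polymerase. Both routes then use the helicases ERCC2 (XPD) and ERCC3 (XPB) of the TFIIH complex, the scaffold XPA and the ERCC1-ERCC4 (XPF) nuclease. DDB2 and XPC are textbook target genes of p53, whose response element is a pair of 10-base motifs separated by a short spacer.

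Promoter windows of 300 bases, 250 before and 50 after each annotated start, were taken from RefSeq (GRCh38.p14), and all 10 genes matched, with 14 windows. An exact p53 element with a spacer of at most 13 bases was present in 10 of 35116 windows of all genes (0.0285%), and 1 of these was a window of DDB2. Its motifs lay at chr11:47214979-47214988 and chr11:47214990-47214999 on the plus strand and ran from base 6 to base 26 of the transcript that starts at position 47214974. The deposited gene start, 47214969, lay 5 bases before that position. The other 13 windows held no exact element, and their best match had 2 to 5 mismatches. The best match in the XPC window had 3, and 39.1% of all windows had a match at least as good. The 120 bases before the start and the first 30 bases after it are shown for DDB2 and XPC, the genes that changed most, and for XPA and ERCC3, later-step genes that were not called. Capitals mark the p53 element in DDB2 (chr11:47214854-47215003, plus strand), the GC box GGGCGG in XPC (chr3:14178572-14178721, minus strand) and in XPA (chr9:97697311-97697460, minus strand), and the ETS core CCGGAAG on either strand in ERCC3 (chr2:127294115-127294264, minus strand).
DDB2: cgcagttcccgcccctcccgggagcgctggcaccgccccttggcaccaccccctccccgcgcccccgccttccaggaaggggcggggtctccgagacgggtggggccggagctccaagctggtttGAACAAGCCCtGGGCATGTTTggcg
XPC: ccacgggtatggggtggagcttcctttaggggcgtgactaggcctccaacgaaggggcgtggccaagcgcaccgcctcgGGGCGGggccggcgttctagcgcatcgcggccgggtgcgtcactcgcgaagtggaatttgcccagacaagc
XPA: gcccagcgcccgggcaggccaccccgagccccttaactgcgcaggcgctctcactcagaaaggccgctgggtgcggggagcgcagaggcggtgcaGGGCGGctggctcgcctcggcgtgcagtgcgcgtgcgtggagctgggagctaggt
ERCC3: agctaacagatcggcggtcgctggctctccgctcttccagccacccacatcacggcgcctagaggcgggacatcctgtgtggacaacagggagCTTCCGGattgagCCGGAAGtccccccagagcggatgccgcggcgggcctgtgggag
Counted on both strands, the GC box was in 9 of the 14 windows and in 45% of all windows, the CCAAT box CCAAT in 4 of 14 and 34.6%, and the ETS core in 3 of 14 and 10.3%. Each printed sequence has capitals for 1 kind of motif only. The DDB2 window with the p53 element also held 3 GC boxes, which are not in capitals. These matches describe the letters of the windows and do not show binding. Of the 10 genes with an exact p53 element in a window, 4 were tested and only DDB2 was called. The p53 targets CDKN1A, MDM2 and PCNA were not among these 10 genes. Elements outside the 300-base windows were not searched, so the lack of a match says nothing about the rest of a gene.

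After exposure to 4HC the damage sensors DDB2 and XPC rose, by 1.90-fold (95% CI 1.80 to 2.00) and 1.65-fold (1.56 to 1.75). None of the 5 later-step genes among the 10 (XPA, ERCC2, ERCC3, ERCC1 and ERCC4) was called higher. Among partner genes outside the 10, RPA subunits and most gap-filling genes of later steps rose, while some TFIIH subunits fell. Of the 10 genes, 3 were higher (DDB2, XPC and ERCC6), 2 were lower (ERCC2 and ERCC4) and 5 were not called, in edgeR's quasi-likelihood test with Benjamini-Hochberg adjustment over 12368 genes and a threshold of 0.05. Of all genes tested, 19.2% were higher and 17.1% were lower at the same threshold. The median log2 fold change was -0.01 over the 10 genes and 0.0047 over all genes tested. In this edgeR fit none of the 10 reached the study's criterion of a fold change of at least 2 with an unadjusted p-value under 0.05. In the same fit 142 of the genes tested (1.15%) reached it. The study reported many more genes at this criterion from its own fit. Its fold changes and p-values were not used here, and the cause of the difference was not tested. In 4 genes (DDB2, XPC, ERCC6 and ERCC1) all 4HC samples lay above all controls, which held for 23.4% of genes tested. In none did all controls lie above all 4HC samples, which held for 21.9%, and the groups of the other 6 genes overlapped. At an unadjusted p-value under 0.05, 4 of the 10 genes were higher and 2 were lower, beside 23.2% and 21.3% of all genes tested. DESeq2 at its adjusted threshold called 2 of the 10 higher and 0 lower, beside 14.1% and 13.9% of the 11579 genes to which it gave an adjusted p-value.

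**Figure D1:**
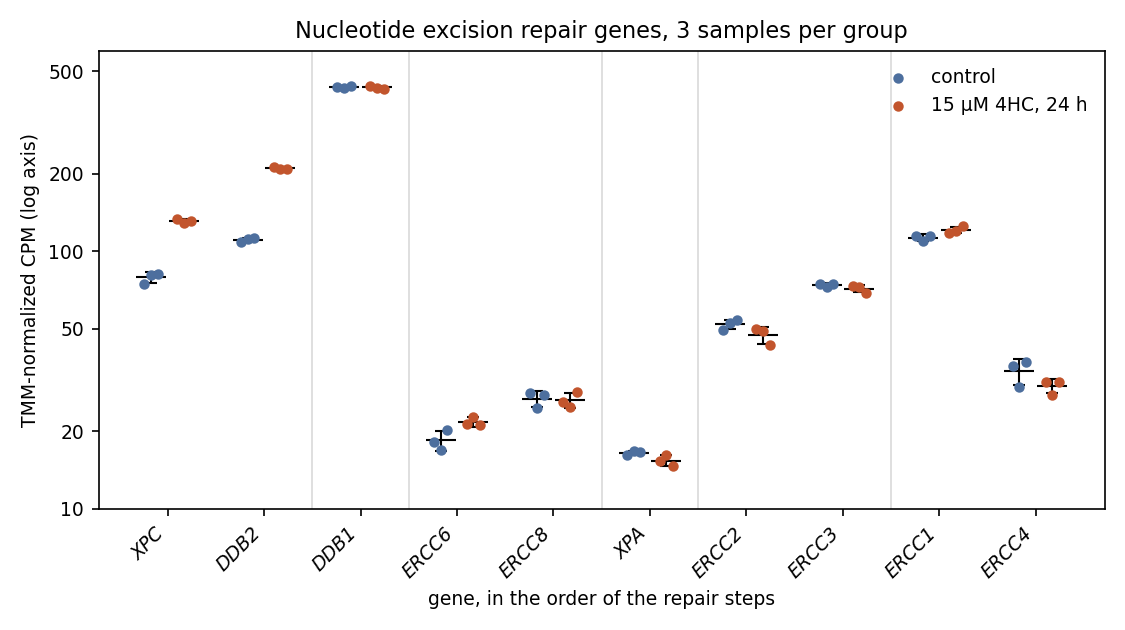
TMM-normalized CPM (log axis) of each of the 10 genes in 3 control and 3 4HC samples, with points for samples, horizontal marks for the mean and bars for the SD. The XPC and DDB2 groups are far apart, from 81.5 to 128.5 CPM between the nearest XPC samples and from 112.3 to 209.0 between the nearest DDB2 samples, while the groups of the other genes lie close together or overlap.

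DDB2 (gene ID 1643, chr11:47214969-47239218 in GRCh38, plus strand) encodes the lesion-binding subunit of the UV-damaged DNA-binding complex. Its level in CPM (counts scaled to library size, here by the TMM method) was 108.6, 111.7 and 112.3 in the controls and 212.8, 209.0 and 209.4 in the 4HC samples. The samples of a group differed by a few CPM, and the groups were separated by a gap much wider than that. The means were 111 ± 1.98 and 210.4 ± 2.07 CPM (SD, n = 3), and the log2 fold change was 0.92 (SE 0.037, edgeR adjusted p = 4.62e-27). By adjusted p-value DDB2 ranked 12 among all genes tested. In bulk RNA, a changed mix of cells and a changed level of RNA per cell cannot be told apart.

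XPC (gene ID 7508, chr3:14144637-14178601, minus strand) encodes the DNA-binding subunit of the genome-wide recognition complex. Control samples held 74.8, 81.1 and 81.5 CPM, and 4HC samples held 133.1, 128.5 and 130.7 CPM. Again the groups did not overlap, with means of 79.1 ± 3.79 and 130.8 ± 2.29 CPM (SD, n = 3). The log2 fold change was 0.72 (SE 0.042, edgeR adjusted p = 3.09e-20). By adjusted p-value XPC ranked 42 among all genes tested. Of 4807 genes whose mean was 50 CPM or more in control or 4HC samples, 12 had a log2 fold change at or above that of DDB2 and 31 at or above that of XPC, themselves included. Of all 12368 genes tested, these numbers were 154 for DDB2 and 279 for XPC. Both calls held in DESeq2, in limma on TPM or FPKM and without any single sample, with log2 fold changes of 0.91 to 0.94 for DDB2 and 0.68 to 0.75 for XPC. XPC shares 318 exonic bases (6.63% of its exonic length in GENCODE release 29) with LSM3 on the opposite strand, and LSM3, an RNA-processing gene, rose from 50.6 to 63.1 CPM (log2 fold change 0.32, edgeR adjusted p = 5.24e-06). On the same opposite strand AC090004.1, a gene not analysed here, shares 8.61% and an antisense RNA, also not analysed here, 23.8%. Whether counting used strand is not stated, and the part of reads from the opposite strand in XPC was not tested.

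For reference, the p53 targets CDKN1A, a cell cycle inhibitor, and MDM2, the ubiquitin ligase of p53, were examined in the same samples. CDKN1A rose from 224.6 ± 7.25 to 783 ± 18 CPM (log2 fold change 1.80, edgeR adjusted p = 2.56e-42). MDM2 rose from 445.7 ± 3.87 to 878.6 ± 5.42 CPM (log2 fold change 0.98, edgeR adjusted p = 6.87e-32). The log2 fold changes of DDB2 (0.92) and XPC (0.72) lay below both, and these differences between genes were not tested.

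DDB1 (gene ID 1642, chr11:61295383-61333105, minus strand) is the partner of DDB2 and the adaptor that joins DDB2 and ERCC8 to the CUL4 ubiquitin ligases. It was the most abundant of the 10 genes by count, at 434.6, 429.0 and 439.3 CPM in the controls and 439.8, 430.4 and 427.8 CPM in the 4HC samples. The groups overlapped fully, and the log2 fold change was -0.01 (95% CI -0.07 to 0.06, edgeR adjusted p = 0.913). On the TPM scale, which is corrected for transcript length, the ratio of DDB1 to DDB2 was 1.499, 1.457 and 1.481 in the controls and 0.786, 0.780 and 0.772 in the 4HC samples. DDB1 transcripts outnumbered DDB2 transcripts in every control and were fewer in every 4HC sample.

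ERCC6 (gene ID 2074, chr10:49418914-49542032, minus strand), the remodeller that acts at stalled polymerases, was at 18.2, 17.0 and 20.2 CPM in the controls and 21.3, 22.8 and 21.1 CPM in the 4HC samples. The 4HC samples lay just above the controls, with a log2 fold change of 0.23 (SE 0.074, edgeR adjusted p = 0.0106). The call was lost without control 2 (edgeR adjusted p = 0.0877) or without 4HC 2 (0.0720), and in DESeq2 (0.0839). It was also lost in limma on TPM or FPKM, where the log2 fold change was 0.13 to 0.18 (adjusted p = 0.200 to 0.297). ERCC8 (gene ID 1161, chr5:60866195-60945070, minus strand), the recognition subunit of the CSA ligase, was at 28.2, 24.6 and 27.7 CPM in the controls and 26.0, 25.0 and 28.5 CPM in the 4HC samples. Its groups overlapped, with a log2 fold change of -0.02 (95% CI -0.15 to 0.12, edgeR adjusted p = 0.858). On the TPM scale ERCC8 was at 18.59, 19.07 and 18.04 in the controls and 14.75, 15.19 and 18.43 in the 4HC samples. In limma its log2 fold change was -0.20 and -0.21 on TPM (adjusted p = 0.0726 and 0.0685, pseudocounts 1 and 0.1) and -0.17 and -0.18 on FPKM (adjusted p = 0.122 and 0.116), values outside the interval from counts and still not called. The pseudogene GNL3LP1, not analysed here, shares 28.3% of the exonic bases of ERCC8 on the same strand.

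The 5 later-step genes had log2 fold changes of -0.19 to 0.10. XPA (gene ID 7507, chr9:97654398-97697403, minus strand), the scaffold that checks the damaged strand, was at 16.1, 16.7 and 16.6 CPM in the controls and 15.3, 16.2 and 14.7 CPM in the 4HC samples. These groups overlapped narrowly, with a log2 fold change of -0.10 (95% CI -0.26 to 0.06, edgeR adjusted p = 0.359). ERCC3 (gene ID 2071, chr2:127257290-127294166, minus strand), a TFIIH helicase, was at 74.7, 72.4 and 74.4 CPM in the controls and 73.1, 72.7 and 69.0 CPM in the 4HC samples. Its log2 fold change was -0.04 (95% CI -0.14 to 0.05, edgeR adjusted p = 0.474).

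ERCC2 (gene ID 2068, chr19:45333434-45370647, minus strand), the TFIIH helicase that opens the DNA around the lesion, was at 49.6, 52.6 and 53.9 CPM in the controls and 49.9, 48.8 and 43.3 CPM in the 4HC samples. The groups overlapped, and the lowest value was that of 4HC 3. ERCC2 fell by 0.14 on the log2 scale (SE 0.054, edgeR adjusted p = 0.0451). This call was lost without control 2 (edgeR adjusted p = 0.0992), control 3 (0.193) or 4HC 3 (0.322), and without 4HC 3 the log2 fold change itself was smaller, at -0.08. In DESeq2 the log2 fold change was -0.14, as in edgeR, and was not called (adjusted p = 0.125), nor was it in limma on TPM or FPKM (-0.13 to -0.16, adjusted p = 0.0617 to 0.124). KLC3, a kinesin light chain gene on the opposite strand that shares 8.29% of the exonic bases of ERCC2, was at 0.532 CPM in the controls and 1.22 CPM in the 4HC samples.

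The fold changes of the nuclease subunits had opposite signs. ERCC1 (gene ID 2067, chr19:45407334-45478828, minus strand), which binds DNA and holds the nuclease in place, was at 115.1, 109.2 and 114.8 CPM in the controls and 117.8, 119.9 and 124.9 CPM in the 4HC samples. All 4HC values were above the controls, but the log2 fold change of 0.10 (95% CI 0.02 to 0.18) was not called (edgeR adjusted p = 0.0538). It was called without 4HC 1 (0.0467) and in 6 of the 16 alternatives in all. ERCC1 shares 28.6% of its exonic bases with POLR1G on the opposite strand, a polymerase I subunit gene that fell from 27.0 to 21.5 CPM (log2 fold change -0.33, edgeR adjusted p = 0.000236). ERCC4 (gene ID 2072, chr16:13916933-13952348, plus strand), the catalytic subunit, was at 35.9, 29.8 and 37.1 CPM in the controls and 31.0, 27.8 and 31.0 CPM in the 4HC samples. Control 2 lay below 2 of the 3 4HC samples, and an antisense RNA not analysed here covers 25.7% of its exonic bases. ERCC4 fell by 0.19 on the log2 scale (SE 0.066, edgeR adjusted p = 0.0176), and the call was lost without control 1 (0.0862), control 3 (0.182) or 4HC 2 (0.137), in DESeq2 (0.0857) and in limma on TPM or FPKM (log2 fold change -0.15 to -0.20, adjusted p = 0.131 to 0.179).

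**Figure D2:**
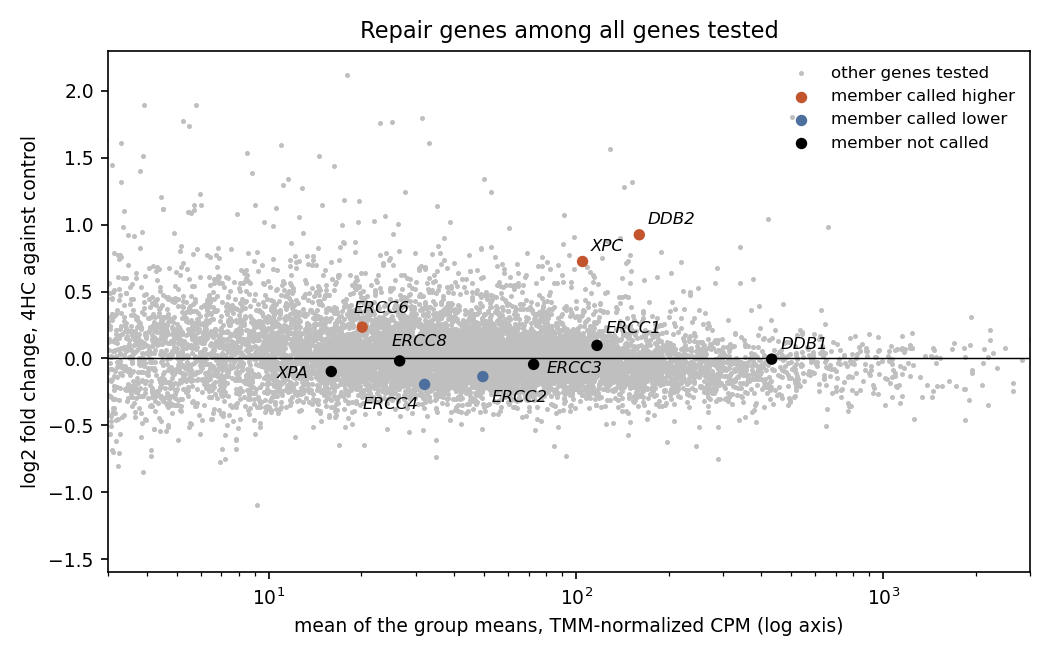
Log2 fold change of 4HC against control (vertical axis) over the mean CPM of both groups (log horizontal axis), with the 10 repair genes in colour or black and the other genes tested in grey. The axes run from 3 to 3000 CPM and leave out 1585 of the 12368 genes. DDB2 at 0.92 and XPC at 0.72 stand above most genes of similar level, and the other 8 lie between -0.19 and 0.23.

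Whether the sensors moved apart from the later steps was examined within samples, by the log2 ratio of a sensor to a later-step gene (XPA, ERCC2, ERCC3, ERCC1 or ERCC4), which does not depend on library scaling. The mean log2 fold change was 0.82 for XPC and DDB2 and -0.08 for the 5 later-step genes, a difference of 0.90. This difference covers only these genes. DDB1, the partner of DDB2, was kept apart from both sides (log2 fold change -0.01). Of the partners at later steps, 3 of 8 TFIIH subunits fell. The 3 RPA subunits and 11 of 18 gap-filling genes rose, and 1 gap-filling gene fell. Among those that rose, PCNA had a log2 fold change of 1.04, above both sensors. The mean log2 CPM of the sensors exceeded that of the later-step genes by 0.92, 1.05 and 0.96 in the controls and by 1.87, 1.85 and 1.90 in the 4HC samples. The groups did not overlap on this measure. In all 10 pairs of a sensor and a later-step gene every 4HC ratio lay above every control ratio. All 10 pairs reuse XPC or DDB2, so they repeat the rise of these genes and are not 10 separate results. How many pairs of other genes separate in this way was not counted. The change in the log2 ratio ran from 0.63 for XPC over ERCC1 to 1.11 for DDB2 over ERCC4. In a two-sided exact permutation test over samples each pair had p = 0.1, adjusted p = 0.1 over the 10 pairs, which is the smallest p that 3 against 3 samples allow, so this test could not pass a threshold of 0.05.

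**Figure D3:**
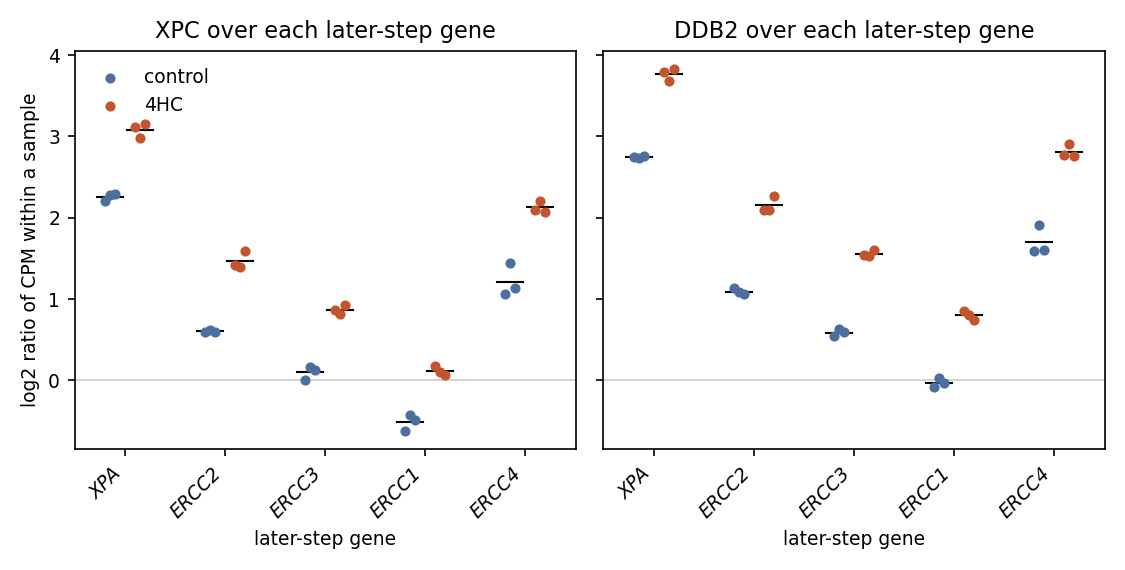
Log2 ratio of CPM within each sample of XPC (left) and DDB2 (right) over each of 5 later-step genes, with points for samples and black lines for group means. In all 10 pairs the 3 4HC samples lie above the 3 controls, by 0.63 to 1.11 between means.

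Ratios within complexes and routes were compared in the same way for 6 further pairs. The log2 ratio of DDB2 to DDB1 was -2.00, -1.94 and -1.97 in the controls and -1.05, -1.04 and -1.03 in the 4HC samples. The log2 ratio of XPC to RAD23B, the partner that stabilizes XPC, was -1.65, -1.49 and -1.58 in the controls and -0.52, -0.56 and -0.61 in the 4HC samples. The ratio of DDB2 to XPC was higher by 0.20 in the 4HC samples, that of ERCC6 to ERCC8 by 0.26 and that of ERCC1 to ERCC4 by 0.29. In these 5 pairs the groups did not overlap, and each had an exact permutation p = 0.1, adjusted p = 0.12 over the 6 pairs. DDB2 or XPC recurs in some of these pairs, and the share of other gene pairs that separate so was not counted here either. The ratio of the TFIIH helicases ERCC2 and ERCC3 overlapped between groups, with a difference of -0.09 (exact permutation p = 0.3).

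Levels were ordered on the TPM scale. In the controls the order of the mean TPM was DDB1 (172 ± 3.25), DDB2 (116 ± 1.70), ERCC1 (80.1 ± 2.45), ERCC3 (47.5 ± 1.18), XPC (36.9 ± 1.75), XPA (23.8 ± 0.625), ERCC2 (23.7 ± 0.632), ERCC8 (18.6 ± 0.515), ERCC4 (8.30 ± 0.937) and ERCC6 (4.11 ± 0.572; SD, n = 3). Only the neighbours XPA and ERCC2 overlapped. In the 4HC samples DDB2, at 218 ± 3.09 TPM, stood above DDB1, at 170.1 ± 3.51, and XPC, at 60.6 ± 1.47, stood above ERCC3, at 45.8 ± 1.57. The other places were the same, and again only XPA and ERCC2 overlapped. ERCC4 and ERCC6 were the least abundant in both groups.

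The transcript table lists 45 RefSeq transcripts of the 10 genes, of which 33 were tested. In edgeR 2 were higher and 0 were lower at the adjusted threshold, and 3 were higher and 0 lower at an unadjusted p-value under 0.05. Over the 42216 transcripts tested, 0.706% were higher and 0.587% were lower at the adjusted threshold, and 5.48% and 5.51% at the unadjusted one. DDB2 consisted almost wholly of NM_000107, with 96.3% of the gene's counts in the controls and 96.9% in the 4HC samples, and this transcript rose by 0.93 on the log2 scale (edgeR adjusted p = 0.000756). XPC consisted almost wholly of NM_004628, with 94.6% and 94.9%, and this transcript rose by 0.73 (edgeR adjusted p = 0.00590). For both sensors the share of the main transcript differed between groups by less than the SD of the controls. The SDs in control and 4HC samples were 1.24 and 0.416 percentage points for NM_000107 and 1.12 and 1.13 for NM_004628. For NM_000107 the difference was larger than the SD of the 4HC samples.

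ERCC6 was divided between transcripts. NM_000124 held 38.0%, 41.8% and 43.5% of its counts in the controls and 47.3%, 43.8% and 50.5% in the 4HC samples, and its log2 fold change of 0.42 (95% CI 0.03 to 0.81) was not called (edgeR adjusted p = 0.402). NM_001346440 had a log2 fold change of 0.15 and NM_001277058 of -0.01, so no ERCC6 transcript passed the test on its own. DDB1 has 1 listed transcript, NM_001923. NM_005236 held 92.1% of ERCC4 in the controls and 92.3% in the 4HC samples. Of the genes with a main and a minor transcript, XPA had NM_000380 at 81.2% and 89.3% and XM_006717278 at 17.0% and 10.3%, ERCC2 had NM_000400 at 78.5% and 83.5% and XM_011526611 at 13.4% and 8.76%, and ERCC3 had NM_000122 at 84.9% and 87.4% and XM_011510794 at 10.8% and 8.46%. ERCC8 had NM_000082 at 67.4% and 69.2%, NM_001007234 at 22.0% and 18.5% and NM_001007233 at 9.78% and 10.7%. ERCC1 was the most divided, with 15 listed transcripts and NM_001369416 at 37.4% and 31.8%, NM_202001 at 18.4% and 24.6% and NM_001369409 at 14.2% and 13.1%. Shares also varied within groups. The SDs in control and 4HC samples were 7.56 and 7.75 percentage points for NM_001369416 and 5.58 and 5.14 for NM_202001. For NM_000380 of XPA they were 5.19 and 4.16. Differences in share between groups were not tested. RSEM divides reads shared by transcripts, and the p-values do not hold that uncertainty.

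The partners of these genes were described with a list of 42, all of which were tested. Of these, 14 were higher, 10 were lower and 18 were not called, with a median log2 fold change of 0.03. Only PCNA reached the study's criterion in this edgeR fit. All genes tested had 19.2% higher and 17.1% lower. The genes that fell were recognition partners, transcription-coupled factors and TFIIH subunits, 3 in each, and LIG3. The genes that rose were the 3 RPA subunits and 11 gap-filling genes, and the groups were not tested against each other.

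Of the 6 recognition partners and ligase subunits, 3 fell and 0 rose (also 0 at an unadjusted p-value under 0.05 in edgeR and 0 in DESeq2), with a median of -0.10. RAD23B, the partner of XPC, was at 234.5, 227.2 and 244.2 CPM in the controls and 190.7, 190.1 and 199.7 CPM in the 4HC samples, and fell by 0.28 on the log2 scale (edgeR adjusted p = 7.02e-09). The ligase scaffolds CUL4A and CUL4B fell by 0.18 and 0.14. Of the 6 transcription-coupled factors, 3 fell and 0 rose (0 at an unadjusted p-value under 0.05 in edgeR and 0 in DESeq2). These were UVSSA, which recruits TFIIH (fell by 0.44, from 18.1 to 13.3 CPM, edgeR adjusted p = 2.57e-05), USP7, a deubiquitinase (fell by 0.17), and TCEA1, an elongation factor (fell by 0.10). Of the 8 TFIIH subunits, 3 fell and 0 rose (0 and 0 by the same other measures). GTF2H2 fell by 0.28, CDK7 by 0.18 and GTF2H3 by 0.16, and in DESeq2 2 of the 3 were called, without CDK7 (adjusted p = 0.0692). GTF2H2 has near-identical copies in the genome, so its counts are uncertain.

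The single-strand binding protein RPA rose in all of its 3 subunits. RPA3 rose by 0.38 on the log2 scale, RPA1 by 0.22 and RPA2 by 0.21, and the highest edgeR adjusted p of the 3 was 0.000181. Of the 18 gap-filling and joining genes, 11 rose and 1 fell, with a median of 0.21. In DESeq2 10 were called higher, without POLE2 (adjusted p = 0.0584). PCNA, the sliding clamp and a p53 target, was at 279.5, 268.0 and 276.4 CPM in the controls and 558.8, 569.4 and 571.5 CPM in the 4HC samples (log2 fold change 1.04, edgeR adjusted p = 6.87e-32). LIG1, the ligase of replication, rose by 0.70 and POLE, a polymerase subunit, by 0.46. LIG3, the ligase used with XRCC1, fell by 0.26. Many of these gap-filling genes also serve DNA replication, and the list does not separate the uses.

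**Figure D4:**
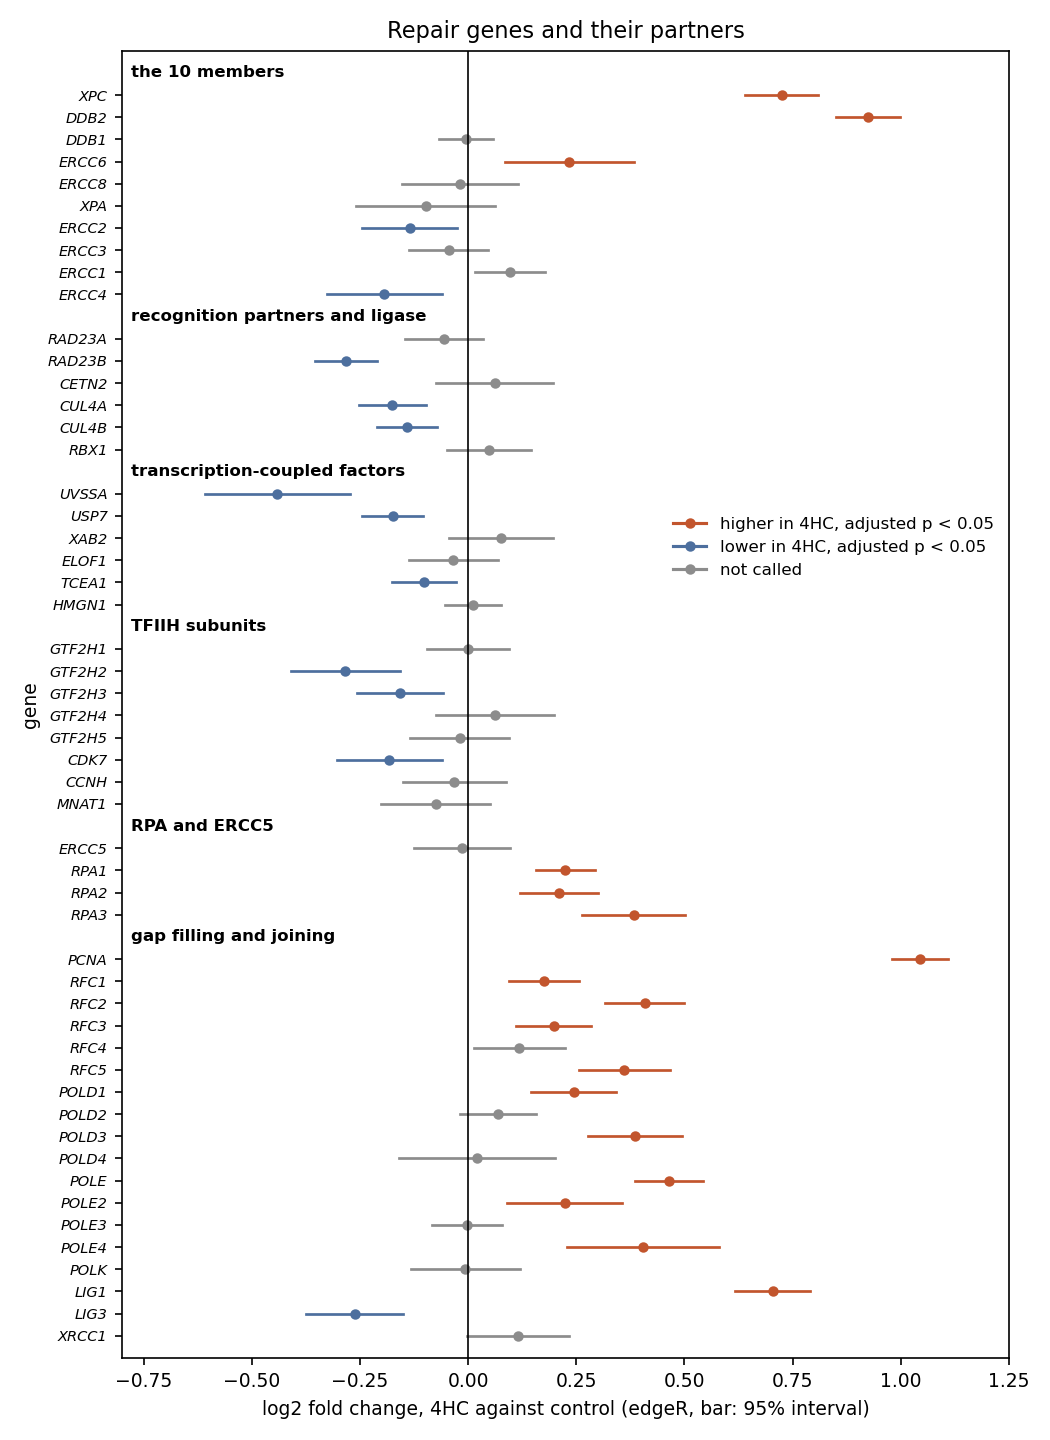
Log2 fold change of 4HC against control for the 10 repair genes and 42 partner genes, grouped by step, with points for the edgeR estimate and bars for its 95% interval. Colour marks genes called higher or lower at an adjusted p-value under 0.05. The genes that rose are the sensors XPC and DDB2, ERCC6, the 3 RPA subunits and 11 of 18 gap-filling genes, while those that fell are among the recognition partners, the transcription-coupled factors, TFIIH, ERCC2, ERCC4 and LIG3.

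ERCC5 (XPG), the nuclease that makes the second cut, shares its exons with the readthrough gene BIVM-ERCC5. ERCC5 alone was at 41.9, 41.7 and 44.6 CPM in the controls and 40.0, 43.5 and 43.6 CPM in the 4HC samples, with a log2 fold change of -0.01 (edgeR adjusted p = 0.877). BIVM-ERCC5 had expected counts of 0.06, 0 and 0 in the controls and 177.9, 80.7 and 93.0 in the 4HC samples, while BIVM had a log2 fold change of 0.03 (edgeR adjusted p = 0.682). Because RSEM divides shared reads between the ERCC5 genes, their CPM were also summed, to 41.9, 41.7 and 44.6 in the controls and 50.7, 48.5 and 49.3 in the 4HC samples. The summed means were 42.8 ± 1.63 and 49.5 ± 1.10 CPM (SD, n = 3), a ratio of 1.16, with no overlap (two-sided exact permutation p = 0.1).

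Sequencing depth was even, with 16133786 to 16702316 expected counts per sample, and the first principal component of log CPM (50.7% of the variance) separated the groups. The GC label was checked with 10 granulosa markers, of which 9 were analysed. FOXL2, FSHR, CYP19A1, INHBA, STAR and NR5A1 were under 1 TPM in every sample, while AMH (5.34 ± 1.40 and 5.39 ± 1.07 TPM in control and 4HC), HSD17B1 (22.5 ± 2.92 and 22.2 ± 0.457) and INHA (1.18 ± 0.512 and 0.897 ± 0.0950) were tested and not called. The 9 markers summed to 24.1 to 33.3 TPM in the controls and 28.0 to 29.3 TPM in the 4HC samples. With 6 of the 9 under 1 TPM, most of these markers did not bear out the GC label. The 7 markers of other cell types summed to 18.95 to 19.8 and 19.1 to 20.6 TPM, 4 of them stayed under 1 TPM in every sample, and 4 were tested. None of the 7 markers tested in both lists was called in edgeR or DESeq2, and 0 had an unadjusted p-value under 0.05 in edgeR.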

How the data were processed

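Total RNA of 3 control and 3 4HC samples of COV434 was sequenced. Reads were filtered by the authors with SOAPnuke, and the submitters' processing notes name HISAT2, Bowtie2, RSEM 1.3.1, DESeq2 1.4.5 and GRCh38.p13. The authors deposited expected counts (RSEM estimates of reads, not normalized) for 16798 genes and 79213 transcripts, with TPM values and FPKM values scaled to length and depth. Their own columns of fold changes, p-values and q-values were not used, and a second gene table with the same values was left out. Totals were 16133786 to 16702316 per sample, and their number limits the precision of genes at few CPM.

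Groups came from the sample titles for the controls and from the treatment label for the 4HC samples. Expected counts were rounded and tested with edgeR 4.0.16 (R 4.3.3) after TMM normalization and filterByExpr, by the quasi-likelihood test, in a model of condition alone, with Benjamini-Hochberg adjustment over the 12368 genes or 42216 transcripts tested. The scripts were first tested on simulated data. DESeq2 1.42.0, limma 3.58.1 on log2 of TPM or FPKM (pseudocounts 1 and 0.1), other scalings and filters, a replicate block and the removal of each sample were alternatives. Ratios within samples were compared by exact permutation with scipy 1.17.1. Promoter windows were from RefSeq (GRCh38.p14) and exon overlaps from GENCODE release 29. Python 3.11.15, pandas 2.3.3 and matplotlib 3.10.9 were used.

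The members and lists were chosen with earlier results of these data known. The text names the 10 members, those partner genes that passed the test with 1 of the 3 largest changes of their step, CDKN1A, MDM2, BIVM, ERCC5 and BIVM-ERCC5, the granulosa markers, and member transcripts with at least 10% of their gene's counts. AC090004.1, DCN, GNL3LP1, KLC3, KRT8, LIG3, LSM3, POLE2 and POLR1G were named after their values were seen.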

Additional observations from a re-analysis of the deposited data

How the results depend on the processing

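XPC and DDB2 were called higher in all 16 alternatives. The number of members called lower, 2, became 0 in DESeq2 and in limma on TPM or FPKM with either pseudocount, 1 with library size as the only scaling, and 0 to 2 when each sample was left out. With the replicate block it was 1, and ERCC2 was no longer called (edgeR adjusted p = 0.0754). The labels do not say whether same-numbered samples were paired. Their deviations from the group means correlated by 0.031, 0.085 and 0.014, which cannot settle this with 3 samples a group. The replicate block also left 0 of the member transcripts called higher, with adjusted p = 0.0865 for NM_000107 and 0.133 for NM_004628. Genes called lower numbered 1343 and 1345 in limma on FPKM with a pseudocount of 1 and 0.1. With all 8 other members as later steps, the sensors exceeded them by 0.85. The log2 fold change of DDB1 turned positive, to 0.015 with library size only, 0.014 and 0.014 on FPKM, 0.0020 without control 3 and 0.0026 without 4HC 3 (range without each sample -0.022 to 0.0026). That of ERCC8 became 0.0021 with library size only, 0.016 without control 1, 0.005 without control 3 and 0.019 without 4HC 2 (range without each sample -0.079 to 0.019), and that of NM_001277058 became 0.0017, 0.11 and 0.03 without control 1, control 3 or 4HC 3 (range without each sample -0.14 to 0.11). None of these reversed values was called. The cause of these changes was not tested. Of the 16 alternatives, ERCC6 was called in 9, ERCC4 in 8, ERCC2 in 6 and ERCC1 in 6. With 3 samples a group, the exact test could not go below 0.1, and samples were not tested as outliers.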
